A study of Mus musculus with 34 samples.

Results

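The products of Eef1a1, Eef1a2, Eif3d, Eif4e, Eif4g2 and Tpt1 serve the initiation or elongation of translation or bind its factors. They were taken as the 6 of 632 tested genes whose single annotated symbol is one of these names on probes of both platforms. They had 7 of the 812 probes with a single gene symbol on each platform, 2 for Eef1a2 and 1 for each other gene, and all 7 passed the filter on missing values. The study measured total RNA of diaphragm and hindlimb muscle on 34 two-colour arrays. L-arginine is the substrate of nitric oxide synthase. In mice treated with it there were 4 arrays each of mdx diaphragm, BL10 diaphragm, mdx hindlimb and BL10 hindlimb, at 3, 5, 9 and 12 weeks of age. In mice not given L-arginine there were 5 arrays each of mdx diaphragm and mdx hindlimb and 4 each of BL10 diaphragm and BL10 hindlimb. They too were at 3, 5, 9 and 12 weeks, 1 array per age, apart from a Sample 1 and a Sample 2 for mdx at 12 weeks. The mdx mouse carries X-linked muscular dystrophy and lacks dystrophin, and BL10 is the strain it was compared with. The labels used here give no dose, duration or route of L-arginine, no sex, and nothing on whether arrays came from separate or pooled animals. The p-values therefore speak of array-to-array spread alone, part of which could be technical.

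Protein synthesis starts when initiation factors bring the capped end of an mRNA to the small ribosomal subunit, and goes on as elongation factor eEF1A carries each charged tRNA to the ribosome. Mammals have a widely expressed form of this factor, encoded by Eef1a1, and a form of adult skeletal muscle, heart and neurons, encoded by Eef1a2, which takes over from Eef1a1 in muscle after birth in the mouse. The Eef1a1 and Tpt1 messages, like those of ribosomal proteins, begin with a pyrimidine tract through which growth signals set their translation.

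The 2 elongation factor genes lie apart in the genome, Eef1a1 at chr9:78478453-78481724 and Eef1a2 at chr2:181141758-181157015 (GRCm38.p6). The 150 bases before each RefSeq start are shown because the results turn on these genes and on how their ratios part. Both genes lie on the minus strand. The stretches cover chr9:78481725-78481874 and chr2:181157016-181157165, and are printed 5′ to 3′ along the gene with matches to GGGCGG, the GC box, in capitals, which both read on the opposite strand.
Eef1a1: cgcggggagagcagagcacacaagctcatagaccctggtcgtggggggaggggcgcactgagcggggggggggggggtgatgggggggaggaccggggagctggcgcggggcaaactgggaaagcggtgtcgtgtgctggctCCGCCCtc
Eef1a2: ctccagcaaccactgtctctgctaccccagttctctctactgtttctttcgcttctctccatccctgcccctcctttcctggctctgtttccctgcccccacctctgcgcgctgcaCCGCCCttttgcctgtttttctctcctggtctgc
RefSeq promoters from 250 bases before to 50 after the start were searched on both strands for the TATA core (TATAA), the CCAAT box (CCAAT), the GC box (GGGCGG), the E-box (CACGTG) and the cyclic AMP response core (TGACGT), and 5 of the 6 genes had an entry. The Eef1a1 window held GGGCGG at -191 and -8 and TATAA at 26, counted from the start, and the Eef1a2 window held GGGCGG at -34 alone. GGGCGG occurred in 35.7% and TATAA in 24.9% of 32851 promoter windows of this length. The Eif4e window at its second start site held CACGTG at -228 and -64 and CCAAT at -46, and CACGTG occurred in 7.15% and CCAAT in 37.4% of windows. The Tpt1 window held GGGCGG at -214, -132 and -30 and TGACGT at -17 and 24, and that of Eif3d held GGGCGG at -233 and TGACGT at -159, a motif of 7.51% of windows. None of these matches overlapped another.

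Each value is the deposited ratio of 2 channels. By the labels, channel 1 holds the strain's RNA at 12 weeks and channel 2 its RNA at the named age, so each strain was set against its own 12-week RNA. A ratio here is neither a level nor a measure per length, and a strain difference is a difference between ratios. The likely direction is the named age over the 12-week RNA, but the labels do not settle it. Correlations between arrays cannot settle it either, since turning every array round leaves them unchanged. Among arrays of opposite strain the lowest Pearson correlation over probes was -0.098 in the L-arginine table and -0.408 in the untreated one. Among arrays of the same strain it was -0.083 and -0.195. If the channels were the other way round, every log2 value and difference below would change sign with the same error and p. Ranks by size of a difference would change side, while ranks by p and correlations would stay. L-arginine and untreated arrays are on different platforms in separate tables, so treatment and platform cannot be told apart. Median ratios were 0.94 to 1.22 on L-arginine arrays and 0.73 to 1.08 on untreated arrays. Values at or below 0, which have no log, numbered 2 to 36 and 0 to 225 per array in those tables. Untreated BL10 hindlimb at 3 weeks (225 such values, median 0.73) and 12 weeks (128, median 0.78) and untreated BL10 diaphragm at 3 weeks (168, median 0.85) stood apart in this. Both channels of 1 L-arginine array, titled BL10 hindlimb at 9 weeks, are labelled MDX. It stayed with BL10, following its title.

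Among the 6 genes, Eef1a1 had the highest ratios and was the 1 gene to pass the test in any comparison. Its ratio in L-arginine mdx hindlimb was 3.62 at 3 weeks, 2.3 at 5, 1.85 at 9 and 2.24 at 12 weeks. In L-arginine BL10 hindlimb it was 1.68, 1.74, 1.39 and 0.71 at those ages. All 4 mdx arrays were above all 4 BL10 arrays, and mdx was higher at each of the 4 ages. How many of all genes did so in this comparison was not counted. In L-arginine mdx diaphragm Eef1a1 stood at 1.67, 1.62, 1.56 and 1.71, an SD of 0.06 on the log2 scale, while L-arginine BL10 diaphragm had 0.95, 1.98, 1.06 and 0.98. The single BL10 array at 5 weeks lay above all the mdx arrays there, and the other 3 lay below them.

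On untreated arrays the Eef1a1 ratio was nearer 1 at the young ages. In untreated mdx hindlimb it was 1.12, 1.11 and 0.92 at 3, 5 and 9 weeks, then 1.97 on Sample 1 and 1.59 on Sample 2 at 12 weeks. In untreated BL10 hindlimb it was 1.04, 0.92, 0.77 and 0.88. In untreated mdx diaphragm the values were 1.26, 0.96 and 1.09, then 1.91 and 1.37 at 12 weeks, and in untreated BL10 diaphragm they were 1.1, 0.91, 0.88 and 0.85. In both tissues the strains overlapped before 12 weeks and the 12-week mdx arrays lay above every BL10 array. The order of the 8 group means on the log2 scale was L-arginine mdx hindlimb (1.28 ± 0.41, SD, n = 4), L-arginine mdx diaphragm (0.71 ± 0.06, n = 4), L-arginine BL10 hindlimb (0.38 ± 0.60, n = 4), untreated mdx hindlimb (0.37 ± 0.44, n = 5), untreated mdx diaphragm (0.36 ± 0.38, n = 5), L-arginine BL10 diaphragm (0.24 ± 0.50, n = 4), untreated BL10 diaphragm (-0.10 ± 0.17, n = 4) and untreated BL10 hindlimb (-0.16 ± 0.18, n = 4). The 4 groups from 0.24 to 0.38 lay within 1 SD of each other, as did the last pair.

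**Figure D1:**
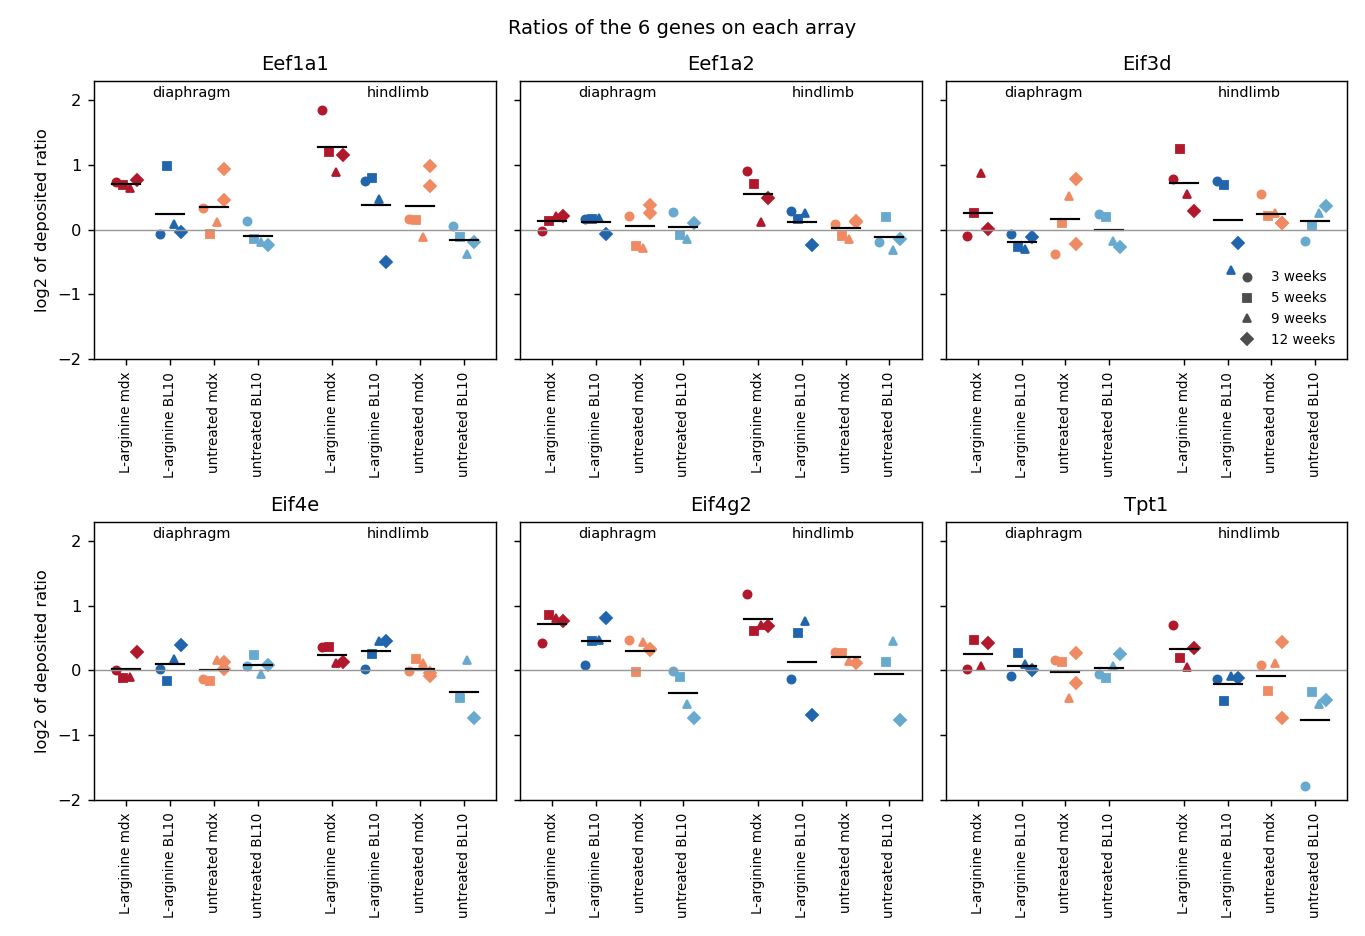
Log2 of the deposited ratio of each of the 6 genes (y axis) on every array, by tissue, table and strain (x axis), with a marker for each age and a black bar at the group mean; missing values are not drawn. Eef1a1 reaches 1.86 in L-arginine mdx hindlimb at 3 weeks, and Tpt1 is at -1.79 in untreated BL10 hindlimb at 3 weeks.

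Differences were tested with limma across all 632 genes, with group and age as terms and Benjamini-Hochberg adjustment at 0.05. Eef1a1 was higher in L-arginine mdx hindlimb than in untreated mdx hindlimb by 0.96 ± 0.24 (SE) on the log2 scale (limma adjusted p = 0.026), and at each of the 4 ages. The 2 groups overlapped, since Sample 1 at 12 weeks (1.97) exceeded the L-arginine value at 9 weeks (1.85). That comparison called 3.32% of all genes, 18 higher and 3 lower, with a median difference of 0.21 over all genes, and Eef1a1 was its 14th gene by p. The call was lost with each array centred on its median (0.86, limma adjusted p = 0.080), with arrays scaled to 1 spread (0.54, adjusted p = 0.48), with quantile normalisation (0.67, adjusted p = 0.46), with the print-order trend removed (adjusted p = 0.052) and with values at or below 0 set to a floor (adjusted p = 0.055). It was also lost without any 1 of 7 of the 9 arrays. These were L-arginine mdx hindlimb at 3, 9 and 12 weeks (adjusted p = 0.110, 0.0502 and 0.0983) and untreated mdx hindlimb at 3, 5 and 9 weeks and Sample 2 (adjusted p = 0.065, 0.067, 0.085 and 0.051). Over the omission of each array in turn the difference ran from 0.78 to 1.12. In the other table comparisons Eef1a1 differed by 0.41 ± 0.24 in mdx diaphragm, 0.54 ± 0.26 in BL10 hindlimb and 0.35 ± 0.26 in BL10 diaphragm (limma adjusted p = 0.51, 0.23 and 0.82). Single arrays moved them to 0.25 in mdx diaphragm (without L-arginine at 12 weeks) and to 0.13 in BL10 diaphragm (without L-arginine at 5 weeks). Without L-arginine at 3 weeks the BL10 diaphragm value was 0.56, and under quantile normalisation it was 0.84. In mdx diaphragm scaling to 1 spread gave 0.66 and quantile normalisation 0.67. The BL10 hindlimb value was 0.33 with the print-order trend removed and 0.82 without the 12-week arrays. These comparisons called 0.633%, 4.75% and 0% of all genes, and none of the 6 genes. In BL10 diaphragm 47 genes had an unadjusted limma p under 0.05, among them Eif4g2.

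Between strains, Eef1a1 was 0.90 ± 0.26 (SE) higher in L-arginine mdx hindlimb than in BL10 hindlimb but missed the threshold (limma adjusted p = 0.11). This comparison called 0.475% of all genes, and Eef1a1 was 9th of 632 by p. Without the array whose channel labels name MDX the difference was 0.99 (adjusted p = 0.12), and without the BL10 array at 12 weeks it was 0.64 (adjusted p = 0.41). The strain difference of Eef1a1 was 0.47 ± 0.26 in L-arginine diaphragm, 0.47 ± 0.24 in untreated hindlimb and 0.41 ± 0.24 in untreated diaphragm, with limma adjusted p of 0.998, 0.36 and 0.53. Without the 12-week arrays the untreated values were 0.21 in hindlimb and 0.19 in diaphragm, and with the print-order trend removed 0.11 and 0.18. The L-arginine diaphragm value was 0.26 without the BL10 array at 3 weeks and 0.22 under quantile normalisation. These comparisons called 0%, 0.791% and 0% of all genes, and 12, 95 and 80 genes had an unadjusted limma p under 0.05. Averaged over both tissues, a comparison added after the data were seen, the strain difference was 0.68 ± 0.18 in the L-arginine table and 0.44 ± 0.17 in the untreated table (limma adjusted p = 0.080 and 0.17), where 0.316% of all genes were called in each. Without the L-arginine BL10 diaphragm array at 5 weeks the first of these was 0.79 (adjusted p = 0.037), and under quantile normalisation it was 0.43 (adjusted p = 0.80). Without the 12-week arrays they were 0.50 and 0.20 (adjusted p = 0.48 and 0.58), and the untreated one was 0.14 with the print-order trend removed (adjusted p = 0.78). Whether the strain difference of Eef1a1 itself differed between hindlimb and diaphragm gave 0.42 ± 0.36 in the L-arginine table and 0.06 ± 0.34 in the untreated table. Neither passed (limma adjusted p = 0.98 and 0.97), nor did any of the 6 genes, with 0% and 0.158% of all genes called and 26 and 56 at an unadjusted limma p under 0.05. In simulated data of the L-arginine hindlimb strain comparison on 632 genes, 100 genes were given a 2-fold and 100 a 4-fold difference. Of these, 64% and 94% were found. The simulation did not cover a case with few changed genes, and the real comparison called 0.475% of all genes.

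The 12-week arrays carry the same strain and age in both channel labels, so a ratio near 1 is what their labels describe. Eef1a1 was above 1 on all 6 mdx arrays at 12 weeks, with log2 ratios of 0.45 to 1.16 and a mean of 0.83, and below 1 on all 4 BL10 arrays, at -0.49 to -0.03 and a mean of -0.24. The difference of 1.06 was the 16th highest of 632 genes, and 1.9% of all genes had every mdx array above every BL10 array at this age. Eif4g2 had the next largest difference among the 6 genes at 12 weeks, 0.79, with means of 0.44 on 5 mdx arrays and -0.35 on 4 BL10 arrays, but its strains overlapped. What sets these 12-week ratios was not tested. Without the 12-week arrays the strain difference of Eef1a1 was 0.64 in L-arginine hindlimb (limma adjusted p = 0.44).

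**Figure D2:**
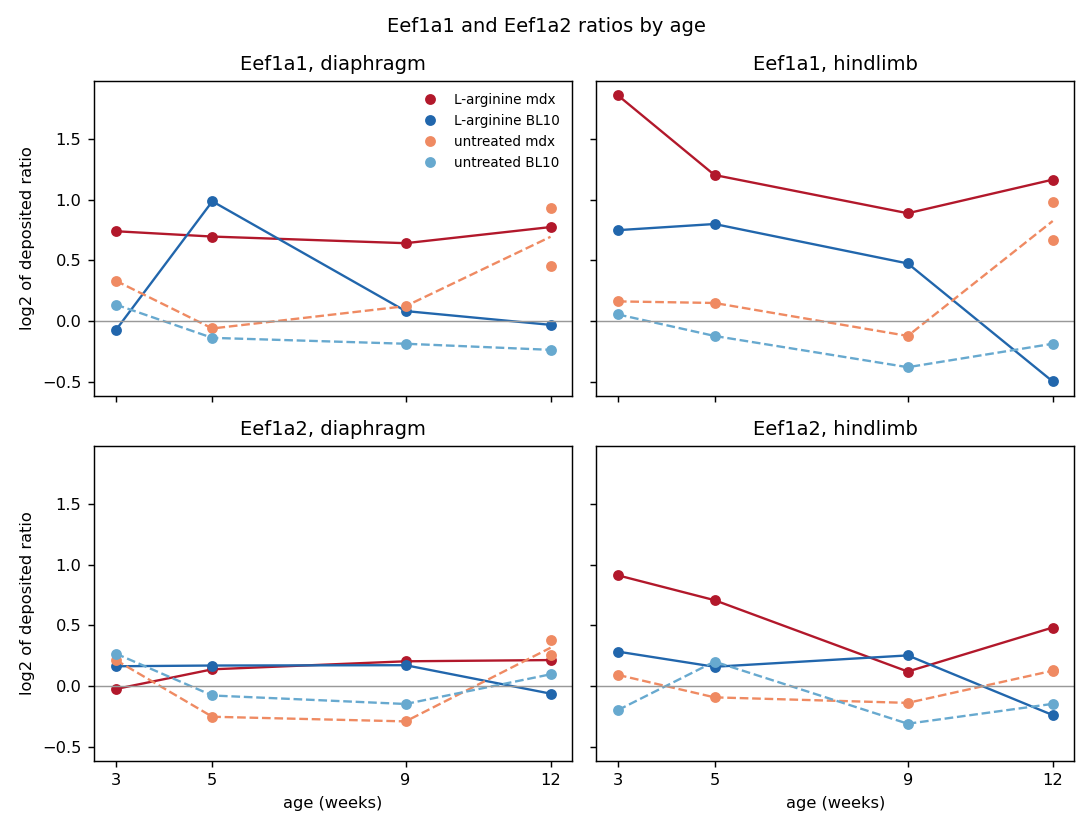
Log2 of the deposited ratio (y axis) of Eef1a1 (top) and Eef1a2 (bottom) against age in weeks (x axis) in diaphragm (left) and hindlimb (right); points are arrays, and lines join the means of each age, solid for L-arginine and dashed for untreated. The Eef1a1 points of both mdx groups lie above those of BL10 at 12 weeks, where Eef1a2 spans -0.24 to 0.48.

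Eef1a2 stayed closer to 1 than Eef1a1. Averaged over its probes, it was 1.88 at 3 weeks, 1.63 at 5, 1.09 at 9 and 1.40 at 12 weeks in L-arginine mdx hindlimb, against 1.22, 1.12, 1.19 and 0.85 in L-arginine BL10 hindlimb. The mdx arrays at 3, 5 and 12 weeks were above every BL10 array, and the one at 9 weeks was below 3 of them. Over the other 6 groups it ran between 0.81 and 1.3, with group means of log2 from -0.11 to 0.13. Its largest differences were L-arginine over untreated mdx hindlimb, 0.56 ± 0.18, and mdx over BL10 in L-arginine hindlimb, 0.44 ± 0.18 (SE; limma adjusted p = 0.084 and 0.27). With arrays scaled to 1 spread they were 0.34 and 0.25. In untreated diaphragm the strains differed by -0.003 with a 95% interval of -0.36 to 0.36.

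The Eef1a2 probes did not read alike. Probe A has number 609 on the L-arginine platform and 768 on the untreated one, and probe B has numbers 856 and 44. They fell on the same side of a ratio of 1 on 22 of 34 arrays and on opposite sides on 10, with a median gap of 0.23 and a largest gap of 0.96 on the log2 scale. In L-arginine mdx hindlimb probe A gave 1.71, 1.17, 1.16 and 1.48 over the ages, and probe B gave 2.07, 2.28, 1.02 and 1.32. In L-arginine BL10 hindlimb probe A gave 1.01, 1.19, 1.58 and 0.89, and probe B gave 1.47, 1.05, 0.9 and 0.81. Single-probe fits put the strain difference in untreated diaphragm at 0.23 ± 0.20 for probe A and -0.24 ± 0.24 for probe B (SE; limma adjusted p = 0.81 for both), so its sign depended on the probe.

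With its probes averaged, Eef1a2 had a lower log2 ratio than Eef1a1 on every mdx array and on some BL10 arrays. Eef1a1 minus Eef1a2, the difference of their log2 ratios on an array, compares how far each gene stood from its own 12-week RNA and says nothing of their relative amounts. In L-arginine mdx hindlimb it was 0.94, 0.49, 0.77 and 0.68 at 3, 5, 9 and 12 weeks, and in L-arginine BL10 hindlimb 0.46, 0.64, 0.22 and -0.26. In L-arginine mdx diaphragm it was 0.76, 0.56, 0.44 and 0.56, and in L-arginine BL10 diaphragm -0.24, 0.81, -0.09 and 0.03. Every L-arginine mdx array was thus above 0, as were 5 of the 8 L-arginine BL10 arrays. In untreated mdx hindlimb it was 0.07, 0.24, 0.02, 0.86 (Sample 1) and 0.53 (Sample 2), and in untreated BL10 hindlimb 0.25, -0.32, -0.07 and -0.04. In untreated mdx diaphragm it was 0.12, 0.19, 0.41, 0.68 (Sample 1) and 0.08 (Sample 2), and in untreated BL10 diaphragm -0.13, -0.06, -0.04 and -0.33. All 10 untreated mdx arrays were above 0, as was 1 of 8 untreated BL10 arrays, and in untreated diaphragm the strains did not overlap. The untreated count rests on averaging the Eef1a2 probes: against probe A alone 6 of the 10 untreated mdx arrays were above 0 and 4 below, with 4 of 8 BL10 arrays above, and against probe B alone 9 were above and 1 below, with 1 of 8 BL10 arrays above. All 8 L-arginine mdx arrays were above 0 against either probe. The separation of the strains in untreated diaphragm rests on the averaging too, since they overlapped against either probe alone.

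**Figure D3:**
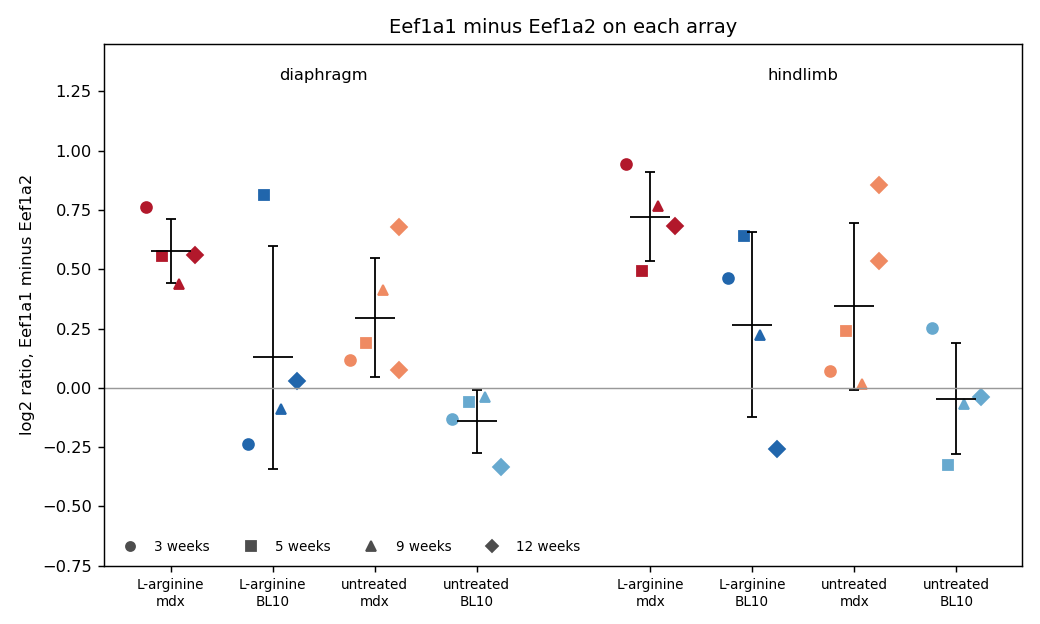
Log2 ratio of Eef1a1 minus that of Eef1a2 (y axis) on every array, by tissue, table and strain (x axis), with a marker for each age; black bars show the group mean ± SD. With the Eef1a2 probes averaged, all 18 mdx arrays lie above 0, from 0.02 to 0.94, and the BL10 arrays span -0.33 to 0.81.

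The group means of this isoform difference were 0.58 ± 0.14 in L-arginine mdx and 0.13 ± 0.47 in L-arginine BL10 diaphragm (SD, n = 4 each), and 0.72 ± 0.19 in L-arginine mdx and 0.27 ± 0.39 in L-arginine BL10 hindlimb (n = 4 each). They were 0.29 ± 0.25 (n = 5) in untreated mdx and -0.14 ± 0.13 (n = 4) in untreated BL10 diaphragm, and 0.34 ± 0.35 (n = 5) in untreated mdx and -0.05 ± 0.24 (n = 4) in untreated BL10 hindlimb. Exact two-sided permutation tests gave strain differences of 0.45 (p = 0.14), 0.45 (p = 0.057), 0.44 (p = 0.016) and 0.39 (p = 0.12) in that order of groups. The smallest p these designs allow is 0.029 in the L-arginine and 0.0079 in the untreated table. After Benjamini-Hochberg adjustment over 11 comparisons the exact p were 0.26, 0.26, 0.17 and 0.26, so no single comparison passed. The untreated diaphragm difference was 0.19 with probe A alone (exact permutation p = 0.33) and 0.68 with probe B alone (p = 0.024), both before adjustment. The mean of the 4 strain differences was 0.43, and an exact two-sided permutation of arrays between strains within each tissue and table, added after the data were seen, gave p = 0.000126, or 0.0016 after adjustment over 13. Its adjusted exact p was 0.065 with Eef1a2 read from probe A alone (0.37), 0.0046 from probe B alone (0.50) and 0.066 under quantile normalisation (0.41), so the call depended on the probe and the scaling. Without the 12-week arrays the mean was 0.30 (adjusted exact p = 0.048). That p was adjusted over fewer than 13 comparisons, since those between ages drop out. It cannot be set directly beside the values adjusted over 13. By the labels each strain was set against its own 12-week RNA. The permutation tests between strains cannot tell a strain difference from an offset shared through that RNA.

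The same isoform difference was higher on L-arginine than on untreated arrays by 0.28 in mdx diaphragm, 0.38 in mdx hindlimb, 0.27 in BL10 diaphragm and 0.31 in BL10 hindlimb. None of these passed (adjusted exact permutation p = 0.26, 0.26, 0.51 and 0.36). Their mean was 0.31, and the added exact test gave p = 0.0030, or 0.020 adjusted over 13. With probe A alone it was 0.25 (adjusted exact p = 0.28), and under quantile normalisation 0.38 (0.066). Against 12 weeks the isoform difference moved by 0.07 at 3 weeks, 0.11 at 5 weeks and -0.007 at 9 weeks over the 8 groups (adjusted exact sign-flip p = 0.71, 0.71 and 0.95), less than the spread between groups of the same age.

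Among the initiation factors, Eif4g2 had the largest differences, none past the threshold as deposited. It encodes a scaffold related to eIF4G that does not bind the cap-binding protein and serves initiation on selected messages. Its ratio was 1.34, 1.81, 1.76 and 1.69 at 3, 5, 9 and 12 weeks in L-arginine mdx diaphragm, against 1.06, 1.37, 1.39 and 1.75 in L-arginine BL10 diaphragm. In untreated mdx diaphragm it was 1.38, 0.98, 1.35, 1.25 (Sample 1) and 1.26 (Sample 2), against 0.99, 0.93, 0.7 and 0.6 in untreated BL10 diaphragm. The 4 untreated BL10 values were all below 1, and only the mdx array at 5 weeks reached down to them. In L-arginine mdx hindlimb it was 2.27, 1.52, 1.63 and 1.61, against 0.91, 1.5, 1.69 and 0.62 in L-arginine BL10 hindlimb. In untreated mdx hindlimb it was 1.22, 1.2, 1.11 and, on Sample 1, 1.08, and in untreated BL10 hindlimb 1.1, 1.37 and 0.59 at 5, 9 and 12 weeks. Sample 2 and the BL10 array at 3 weeks held values below 0 and entered the fit as missing.

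Eif4g2 was higher in L-arginine than in untreated BL10 diaphragm by 0.80 ± 0.27 (SE) and was 11th of 632 genes by p (limma adjusted p = 0.39). That difference passed after scaling to 1 spread (1.10, adjusted p = 0.038) or quantile normalisation (1.64, adjusted p = 0.024), and was 0.31 with the print-order trend removed (adjusted p = 0.90). Eif4g2 was also 0.59 ± 0.27 higher in L-arginine than in untreated mdx hindlimb (limma adjusted p = 0.26). This difference was 0.36 without the L-arginine array at 3 weeks, and ran from 0.14 with the print-order trend removed to 1.47 with the floor. Between strains, Eif4g2 differed by 0.70 ± 0.26 in untreated diaphragm, 0.67 ± 0.27 in L-arginine hindlimb, 0.26 ± 0.27 in L-arginine diaphragm and 0.20 ± 0.30 in untreated hindlimb (limma adjusted p = 0.25, 0.27, 0.998 and 0.83). None passed. All 4 were above 0 as deposited, but the untreated hindlimb value was -0.13 without the 12-week arrays and -0.12 without the BL10 array at 12 weeks, and 1.03 with values below 0 set to a floor. The L-arginine hindlimb value was 0.36 without the BL10 array at 12 weeks, 0.43 without the mdx array at 3 weeks and 0.43 without the 12-week arrays. Leaving out the 3-week untreated BL10 diaphragm array, which stood apart, the first was 0.77 (adjusted p = 0.65).

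Eif4e encodes the protein that binds the mRNA cap, a step held back by its binding proteins and released by growth signals. It had the narrowest range of the 6 genes on L-arginine arrays, 0.89 to 1.37. Its ratios were 1.29, 1.29, 1.08 and 1.09 over the ages in mdx hindlimb, against 1.01, 1.19, 1.37 and 1.37 in BL10 hindlimb. In untreated mdx hindlimb it was 0.99, 1.13, 1.08, 0.97 (Sample 1) and 0.94 (Sample 2), against 0.74, 1.12 and 0.6 at 5, 9 and 12 weeks in untreated BL10 hindlimb, whose 3-week value was below 0 and entered as missing. The untreated BL10 hindlimb ratios were spread the widest, an SD of 0.46 on the log2 scale, against 0.11 to 0.24 in the other 7 groups. In diaphragm every array of either strain and table lay between 0.89 and 1.31. Eif4e was 0.65 ± 0.21 (SE) higher in L-arginine than in untreated BL10 hindlimb (limma adjusted p = 0.063), on 3 untreated arrays. With the missing value set to a floor, the lowest positive ratio, it was 2.21 (adjusted p = 0.048), and without the 12-week arrays 0.41 (adjusted p = 0.48). Without the untreated array at 9 weeks it was 0.90 (adjusted p = 0.014), and without the one at 12 weeks, which stood apart, 0.47 (adjusted p = 0.30). Its strain differences were -0.09, -0.05 and -0.07 in L-arginine diaphragm, L-arginine hindlimb and untreated diaphragm, each with an SE of 0.18 to 0.19. That in untreated hindlimb was 0.41 ± 0.20 (limma adjusted p = 0.33), 1.90 with the floor, 0.64 without the BL10 array at 9 weeks and 0.20 without the one at 12 weeks.

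Eif3d encodes a subunit of eIF3, the large complex that joins the small ribosomal subunit to the mRNA. Its ratio was 1.72, 2.37, 1.46 and 1.22 over the ages in L-arginine mdx hindlimb, against 1.68, 1.62, 0.65 and 0.87 in L-arginine BL10 hindlimb. In L-arginine mdx diaphragm it was 0.93, 1.2, 1.84 and 1.01, against 0.95, 0.83, 0.81 and 0.92 in L-arginine BL10 diaphragm. The mdx values peaked at 5 weeks in hindlimb and at 9 weeks in diaphragm, and the strains overlapped in both tissues. On untreated arrays Eif3d ran from 0.77 to 1.73 in mdx and from 0.83 to 1.29 in BL10. Its strain differences were 0.45 ± 0.29, 0.56 ± 0.29, 0.17 ± 0.28 and 0.12 ± 0.28 in L-arginine diaphragm, L-arginine hindlimb, untreated diaphragm and untreated hindlimb (SE; limma adjusted p = 0.998, 0.459, 0.865 and 0.897), and its differences between tables ran from -0.19 to 0.47. The L-arginine strain differences were 0.13 in diaphragm without the mdx array at 9 weeks and 0.26 in hindlimb without the BL10 array at 9 weeks, the one with MDX channel labels. Those in the untreated table changed sign in 2 settings in diaphragm and 3 in hindlimb, down to -0.15 and -0.06 with the print-order trend removed, so their direction was not settled.

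Tpt1 encodes a small abundant protein, translationally controlled tumour protein, which binds eEF1A. In L-arginine mdx hindlimb its ratio was 1.63, 1.14, 1.04 and 1.27, against 0.91, 0.72, 0.94 and 0.92 in L-arginine BL10 hindlimb. All 4 mdx arrays were above 1 and all 4 BL10 arrays below it. How common this was over all genes was not counted. In untreated mdx hindlimb it was 1.06, 0.8, 1.08, 1.35 (Sample 1) and 0.6 (Sample 2), against 0.29, 0.79, 0.7 and 0.73 in untreated BL10 hindlimb. The 3-week BL10 value was the lowest positive ratio of the 6 genes on any array, and Samples 1 and 2 lay at opposite ends of their group. In diaphragm Tpt1 ran from 1.02 to 1.39 in L-arginine mdx and 0.94 to 1.21 in L-arginine BL10, and from 0.74 to 1.2 in untreated mdx and 0.92 to 1.19 in untreated BL10. The strain difference was 0.53 ± 0.28 (SE) in L-arginine hindlimb and 0.67 ± 0.27 in untreated hindlimb (limma adjusted p = 0.46 and 0.23), against 0.18 ± 0.28 and -0.07 ± 0.27 in L-arginine and untreated diaphragm. The untreated hindlimb value was 0.32 (adjusted p = 0.79) without the BL10 array at 3 weeks, which stood apart, and 0.42 with arrays scaled or quantile normalised. Whether the strain difference differed by tissue gave 0.74 ± 0.37 in the untreated table (limma adjusted p = 0.61).

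**Figure D4:**
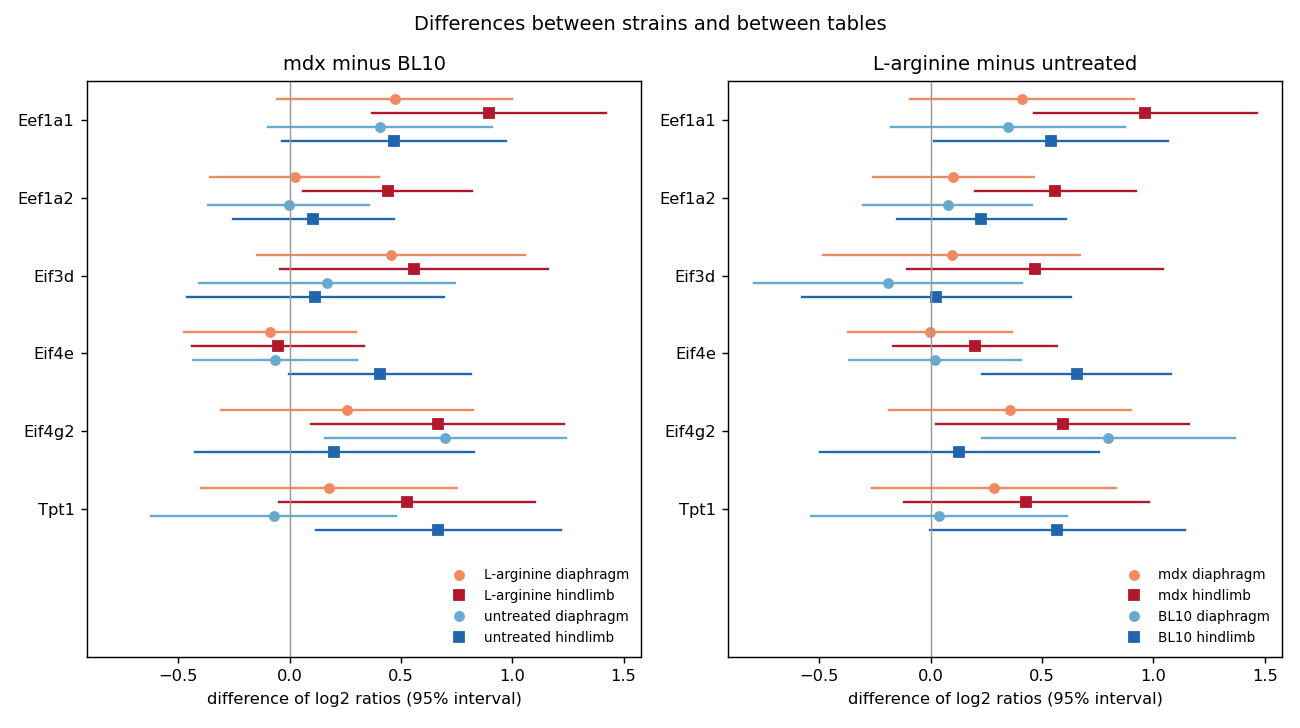
Fitted differences of log2 ratios with 95% intervals (x axis) for the 6 genes (y axis), mdx minus BL10 (left) and L-arginine minus untreated (right), in each tissue and table or strain. Eef1a1 in mdx hindlimb, at 0.96 between tables, is the 1 difference that passed adjustment over all genes.

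Read as a set, 5 of the 6 genes had higher fitted ratios in mdx than in BL10 hindlimb on L-arginine arrays, with a median difference of 0.54, against a median of 0.13 over all 632 genes. The plot of fitted differences shows Eif4e as the exception, at -0.05. In L-arginine diaphragm 5 of 6 were above 0 (median 0.22, against 0.02 over all genes), in untreated hindlimb 6 of 6 (0.30, against 0.16) and in untreated diaphragm 3 of 6 (0.08, against 0.15). For L-arginine minus untreated, 6 of 6 were above 0 in mdx hindlimb (median 0.51, against 0.21) and in BL10 hindlimb (0.38, against 0.24), and 5 of 6 in mdx diaphragm (0.19, against -0.07) and BL10 diaphragm (0.06, against 0.05). The median over all genes was itself above 0 in each comparison but that of mdx diaphragm between tables. Between strains, 5 of 6 exceeded the median of all genes in L-arginine hindlimb and 4 in L-arginine diaphragm. In untreated hindlimb 4 did, and in untreated diaphragm 3. Between tables, 5 did in mdx hindlimb, 3 in BL10 hindlimb, 6 in mdx diaphragm and 3 in BL10 diaphragm. These comparisons share arrays and are not independent of each other.

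Age moved none of the 6 genes past the threshold, and no gene of the 632 was called at 3, 5 or 9 weeks against 12 weeks in either table (0% in each of 6 comparisons). Unadjusted p were under 0.05 for 33, 46 and 15 genes in the L-arginine table and 76, 38 and 38 in the untreated table. Eef1a1 was 0.57 ± 0.26 (SE) higher at 5 than at 12 weeks on L-arginine arrays and differed by -0.50 ± 0.23 at 9 weeks against 12 weeks on untreated arrays (limma adjusted p = 0.65 and 0.77). The first of these rested partly on single BL10 arrays, being 0.31 when hindlimb at 12 weeks was left out and 0.36 when diaphragm at 5 weeks was (limma adjusted p = 0.998 and 0.87). The mean log2 ratio of Eef1a1 on L-arginine arrays was 0.82 ± 0.79, 0.92 ± 0.22, 0.52 ± 0.34 and 0.35 ± 0.75 at 3, 5, 9 and 12 weeks (SD, n = 4 each). On untreated arrays it was 0.17 ± 0.12, -0.04 ± 0.13 and -0.14 ± 0.21 (n = 4 each) and 0.44 ± 0.53 (n = 6). Eef1a2 on untreated arrays was lowest at 9 weeks, with all 4 arrays below 0 (-0.22 ± 0.09, SD), and its difference from 12 weeks was -0.35 ± 0.17 (SE, limma adjusted p = 0.77).

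Other translation genes were few on these arrays. Gfm1, a mitochondrial elongation factor, and Larp1, which binds pyrimidine-tract messages, were the measured ones of a wider list, and neither was called in any comparison. Both had negative differences between L-arginine and untreated BL10 diaphragm, -0.58 ± 0.27 for Gfm1 and -0.60 ± 0.34 for Larp1 (SE; limma adjusted p = 0.60 and 0.68). Of 7 ribosomal protein genes, 2 were called higher in L-arginine than in untreated mdx hindlimb, where 3.32% of all genes were called, and all 7 were above 0 (median 0.67, against 0.21 over all genes). In BL10 hindlimb 1 of the 7 was called higher, with 4.75% of all genes called (median 0.61, against 0.24). Of 2 aminoacyl-tRNA synthetase genes none was called in any comparison.

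Over the 34 arrays, each centred on its median, the genes whose ratios ranked most like those of Eef1a1 were Bgn (Spearman rho 0.82), Col1a2 (0.76), Rps2 (0.71, 33 arrays), Postn (0.67) and Ssc5d (0.66), among 627 genes. Bgn, Col1a2 and Postn encode matrix proteins of fibroblasts and Rps2 a ribosomal protein. For Bgn rho was 0.73 within the L-arginine and 0.77 within the untreated table, for Postn 0.48 and 0.47, and for Ssc5d 0.65 and 0.24. For Eef1a2 they were Pdia3 (0.64), Col1a2 (0.63), Bgn (0.63), Sypl2 (0.62) and Eef1a1 (0.62). For Tpt1 they were Lyz2 (0.65), a macrophage lysozyme, Kcnc1 (0.59, 33 arrays), Slc25a3 (0.57, 33 arrays), Ccl6 (0.55) and Myl4 (0.55). For Kcnc1 rho was 0.90 within the L-arginine and 0.32 within the untreated table, and for Ccl6 0.89 and 0.31, so likeness over all arrays did not hold equally in both tables. Eef1a1 ranked with Eif4g2 at 0.55 and Tpt1 at 0.41, and Eif4e with no other of the 6 genes above 0.16. These are descriptions, and the arrays share tissues, tables and 12-week RNA labels.

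Markers of other cells were also high in L-arginine mdx hindlimb, where Eef1a1 was highest. Of the matrix and fibroblast list 5 of 10 genes were measured. Their mean log2 ratio ran from 1.11 to 1.86 over L-arginine mdx hindlimb arrays, 0.25 to 1.201 in L-arginine BL10 hindlimb, 0.02 to 0.67 in untreated mdx hindlimb and -0.29 to 0.14 in untreated BL10 hindlimb. Between L-arginine and untreated mdx hindlimb 3 of the 5 were called higher (median 1.26), where 3.32% of all genes were called. In BL10 hindlimb, where Eef1a1 was not called, 2 of the 5 were called higher (median 1.00), with 4.75% of all genes called. Macrophage markers, 4 of 10 measured, ran from 0.99 to 1.32 in L-arginine mdx hindlimb, -0.39 to 0.36 in L-arginine BL10 hindlimb, 0.14 to 1.16 in untreated mdx hindlimb and -0.64 to 0.49 in untreated BL10 hindlimb. Of the list for regenerating or developing fibres 4 of 8 genes were measured, Ankrd1, Des, H19 and Igf2. Myh3, Myh8, Myog and Ncam1 of that list were not, and how well the measured 4 stand for such fibres was not tested. The mean of these 4 ran from 0.96 to 1.79 in L-arginine mdx hindlimb and -0.82 to 1.14 in L-arginine BL10 hindlimb. Fast-fibre genes, 8 of 10 measured, had medians of 0.13 and 0.11 in those groups, and slow-fibre genes, 2 of 7 measured, medians of 0.56 and 0.12. Other groups had high values too. In L-arginine mdx diaphragm the matrix list ran from 0.55 to 1.19, macrophage markers from 0.75 to 1.04 and the measured regenerating-fibre list from 0.59 to 1.87. Slow-fibre genes had a median of 0.75 there. The measured regenerating-fibre list ran from -0.32 to 1.57 in untreated mdx hindlimb. In whole muscle a change in the share of a cell type and a change in RNA per cell cannot be told apart, and the part of these cells in the Eef1a1 result was not tested.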

How the data were processed

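The authors deposited 2 tables, 16 L-arginine and 18 untreated arrays of 1200 probes each, whose values were read from the values themselves as linear 2-channel ratios; no source used here states the scanner, background correction, normalisation or dyes, and scale, centring and direction stay unknown. The deposited ratios were not further normalised. Positive ratios were turned into log2 and others set missing. Probes valued on 75% or more of each table's arrays and with 1 symbol in the platform annotation were averaged per gene, giving 632 genes. limma 3.58.1 in R 4.3.3 fitted group and age within table; 16 comparisons and 2 added ones were adjusted by Benjamini-Hochberg and called at 0.05. The isoform difference was tested by exact permutation. Figures used Python 3.11.15 and matplotlib 3.10.9. All 6 genes were named, with the 5 most alike genes of Eef1a1, Eef1a2 and Tpt1 (value on at least 30 arrays). The genes and lists were chosen with earlier results of these data known. No 2 arrays held identical values. The number of arrays limits the precision. The fit was tested on simulated data. Alternatives changed scaling, print-order trend (running median over 51 probes), missing values, filters, ages, fits and single arrays.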

Additional observations from a re-analysis of the deposited data

Results flagged for a closer look

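In 5 of 54 sets of 4 or 5 arrays 1 array lay far from the others of its group by Dixon's test, of which chance gives about 5%. The sets cover the single genes and the isoform difference in each group, and all flagged ones are of single genes. Arrays of a set differ in age, so that chance rate is only a rough guide. Eef1a1 in L-arginine BL10 diaphragm was 0.9855 on the log2 scale at 5 weeks (ratio 1.98), against ratios of 0.95 to 1.06 on the other arrays. Eef1a2 in the same group was -0.0600 at 12 weeks (ratio 0.959), against 1.12 to 1.13. Eif4g2 in untreated mdx diaphragm was -0.0291 at 5 weeks (0.98), against 1.25 to 1.38. Tpt1 was -0.474 in L-arginine BL10 hindlimb at 5 weeks (0.72), against 0.91 to 0.94, and -1.79 in untreated BL10 hindlimb at 3 weeks (0.29), against 0.7 to 0.79. That last array also held 225 values at or below 0.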

How the results depend on the processing

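Of the 6 genes, 1 was called in mdx hindlimb between tables as reported, and 0 with arrays centred, arrays scaled to 1 spread, quantile normalisation, the print-order trend removed or values at or below 0 set to a floor; leaving out single arrays gave 0 to 1. In BL10 diaphragm between tables the count went from 0 to 1 with scaling to 1 spread and with quantile normalisation (Eif4g2). In BL10 hindlimb between tables it went from 0 to 1 with the floor, and was 0 to 1 leaving out single arrays (Eif4e). In the L-arginine strain difference averaged over tissues it was 1 with probes that had a value on every array, and 0 to 1 leaving out single arrays (Eef1a1). The isoform difference between ages changed sign at 3 weeks with Eef1a2 probe B alone (-0.0675), and at 9 weeks with arrays scaled (0.0430), probe A alone (0.00275) or quantile normalisation (0.00271). Leaving out single arrays it ran from -0.0277 to 0.165 at 3 weeks, -0.00798 to 0.185 at 5 weeks and -0.0767 to 0.0888 at 9 weeks. The mean isoform strain difference was 0.369 with probe A alone and 0.407 with quantile normalisation, both past the threshold no longer, and the mean table difference 0.252 and 0.378 likewise; leaving out single arrays they ran from 0.388 to 0.489 and 0.254 to 0.354 and passed throughout. Over all genes, the calls in mdx hindlimb between tables ranged from 0 to 25 against 21, in BL10 hindlimb from 4 to 79 against 30, and in the L-arginine hindlimb strain comparison from 0 to 15 against 3. The cause of these changes was not tested. No analysis paired by replicate was possible because the groups compared share no replicate numbers in the labels. Only the untreated mdx groups number their arrays, as Sample 1 and Sample 2 at 12 weeks. Arrays of different groups are matched by age, which is already a term of the limma fit. The exact tests between strains or tables could have been matched by age but were not. Signal over background is not in the deposited tables used here, so weak spots cannot be told from strong ones.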
